A study of Mus musculus with 16 samples.

Results

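The 31 genes described here are the enzymes of cholesterol synthesis and the genes that control, accompany or oppose it in the SREBP and LXR pathways. They comprised 7 enzymes of the mevalonate pathway, 11 enzymes that turn its product into squalene and cholesterol, 5 genes of the SREBP switch, 5 genes of fatty acid synthesis and desaturation, and 3 genes of cholesterol efflux and transfer. The list was given by gene symbol, and each gene was read from its brightest probe, the one with the highest mean over all arrays. All 31 genes had a probe and all 31 were tested, among 14679 genes tested of 20668 with a probe.

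The arrays measured RNA of CD4+ T cells from the spleen of male mice aged 8 to 10 weeks. All mice carried Cre recombinase driven by the CD4 promoter (CD4cre). Control mice carried it alone, IKK2 knockout mice carried it with the floxed allele IKK2fl/fl, and NEMO knockout mice with the floxed allele written NEMOfl/f in the labels. In each genotype some mice had no inflammation and others received nephrotoxic sheep serum into the peritoneum, 2.5 mg for each g of body weight, and were sampled on day 10 of the resulting nephritis. Cre controls and IKK2 knockouts had 3 arrays in each condition and NEMO knockouts had 2, 16 in all. CD4-Cre acts from the thymocyte stage at which CD4 is made, so that deletion starts before the T cells are mature. IKK2 and NEMO are the catalytic and the regulatory subunit of the kinase that activates canonical NF-kB.

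Cells make cholesterol from acetyl-CoA through the mevalonate pathway, squalene and a chain of sterols. When membrane cholesterol is low, Scap carries the precursor of the SREBP transcription factors out of the endoplasmic reticulum and the active factor raises the genes of synthesis, whereas Insig proteins hold it back when sterols are plentiful. Oxidised sterols activate LXR, which raises the transporters that export cholesterol. In T cells, activation and division are known to come with SREBP activity, since new membrane has to be built.

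Promoter sequences of 24 of the 31 genes were matched in RefSeq (GRCm38.p6), and the 250 bases before the annotated start were searched on both strands. The DR4 element that LXR binds, a direct repeat with a spacer, was found in 3 of the 24 (12.5%), Abca1, Fasn and Srebf1, against 0.707% of 27025 genes. The core of a sterol regulatory element, TCACNCCAC, was found in 1 of 24 (4.17%), Hmgcs1, against 1.22% of genes. The CCAAT box, CCAAT, was present in 19 of 24 (79.2%) against 37.5% of genes, and the E box, CANNTG, in 16 of 24 (66.7%) against 69.3%. The only overlaps between matches of different motifs were of E boxes with CCAAT boxes, in Fasn and Hmgcs1. No entry was used for Fdft1, Scd2, Abcg1, Stard4, Sqle, Scd1 and Fdps. The stretches below show the DR4 and sterol regulatory element matches in capitals, as letters and not as tested sites. All are printed 5′ to 3′ on the strand of the gene, where the DR4 match reads as its reverse complement. The Abca1 and Fasn matches have the same 15 letters. The stretches lie at chr4:53159906-53160005 (minus strand) for Abca1, chr11:120824698-120824797 (minus strand) for Fasn, chr11:60210597-60210696 (minus strand) for Srebf1 and chr13:119690171-119690270 (plus strand) for Hmgcs1.
Abca1: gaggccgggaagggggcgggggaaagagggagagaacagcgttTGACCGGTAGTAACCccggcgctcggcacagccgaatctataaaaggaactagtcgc
Fasn: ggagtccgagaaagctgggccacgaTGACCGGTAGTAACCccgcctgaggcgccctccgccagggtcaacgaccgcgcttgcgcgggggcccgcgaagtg
Srebf1: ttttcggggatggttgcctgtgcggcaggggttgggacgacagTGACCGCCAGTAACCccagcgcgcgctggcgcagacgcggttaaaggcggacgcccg
Hmgcs1: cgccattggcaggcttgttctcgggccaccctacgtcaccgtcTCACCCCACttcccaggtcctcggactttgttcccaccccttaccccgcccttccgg

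Levels below are log2 of the background-subtracted spot intensity minus the 75th percentile of the array, so that 0 is that percentile, and differences are log2 differences of group means with the standard error (SE) of a linear model fitted by limma to all 16 arrays. A gene is said to pass, to be higher or lower, or to rise or fall where its p-value, adjusted over all 14679 genes within the comparison, was under 0.05, and "differed by" only introduces a value. The labels do not tie replicate arrays to separate mice. The p-values therefore measure only how far these samples spread, and part of that may be technical. Slide 1 held the Cre controls with nephritis, IKK2 knockout replicates 1 and 2 and the IKK2 knockouts with nephritis, slide 2 held the Cre controls and IKK2 knockout replicate 3, and slide 3 held all 4 NEMO arrays. NEMO genotype and slide therefore cannot be told apart. Markers of CD4 T cells were well above background on every array in 8 of 8 genes, and their mean stayed within -0.20 to 0.09 of the Cre controls without nephritis. Markers of other cells varied between groups. Relative to the same controls, the mean of 10 B cell markers was 0.72 to 1.66 in Cre controls with nephritis, 1.97 to 2.53 and 1.62 to 2.05 in IKK2 knockouts without and with it, and 1.76 to 1.93 and 1.33 to 1.61 in NEMO knockouts. The mean of 10 myeloid markers was 0.05 to 1.53, 1.95 to 2.25, 1.28 to 1.52, 2.07 to 2.31 and 2.21 to 2.68 in the same order. In the Cre controls without nephritis these means spread over -0.18 to 0.19 and -0.41 to 0.55. Pax5 was not well above background on any Cre control or NEMO array and Cd14 on any Cre control array. In sorted cells measured in bulk, fewer cells of a type and less RNA per cell cannot be told apart.

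The targeted genes were read first. Without nephritis, Ikbkb, which encodes IKK2, read 3.29, 3.31 and 3.30 in Cre controls and 3.31, 2.88 and 2.99 in IKK2 knockouts, and with nephritis 3.27, 3.45 and 3.18 in controls and 3.02, 2.95 and 2.91 in IKK2 knockouts. Ikbkg, which encodes NEMO, read -0.85, -0.74 and -0.52 in controls and -0.94 and -0.74 in NEMO knockouts without nephritis, and -0.26, -0.40 and -0.26 in controls and -0.71 and -0.59 in NEMO knockouts with it. In the other knockout, Ikbkb read 2.84 and 3.06 and Ikbkg -0.01, -0.0013 and -0.06 without nephritis, and 2.78 and 2.86 and -0.33, -0.53 and -0.36 with it. Ikbkb differed by -0.24 (adjusted p = 0.162) and -0.34 (adjusted p = 0.133) in IKK2 knockouts without and with nephritis, and Ikbkg by -0.13 (adjusted p = 0.337) and -0.34 (adjusted p = 0.0195) in NEMO knockouts. The Ikbkb probe was lower in the NEMO knockouts, at -0.35 (adjusted p = 0.0371) and -0.48 (adjusted p = 0.00653), and the Ikbkg probe was higher in IKK2 knockouts without nephritis, by 0.68 (adjusted p = 0.00153). These calls lie outside the gene targeted, and only Ikbkg with nephritis passed in its own knockout. Where the probes lie relative to the deleted parts was not analysed here. The labels state that deletion was assessed by PCR.

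**Figure D1:**
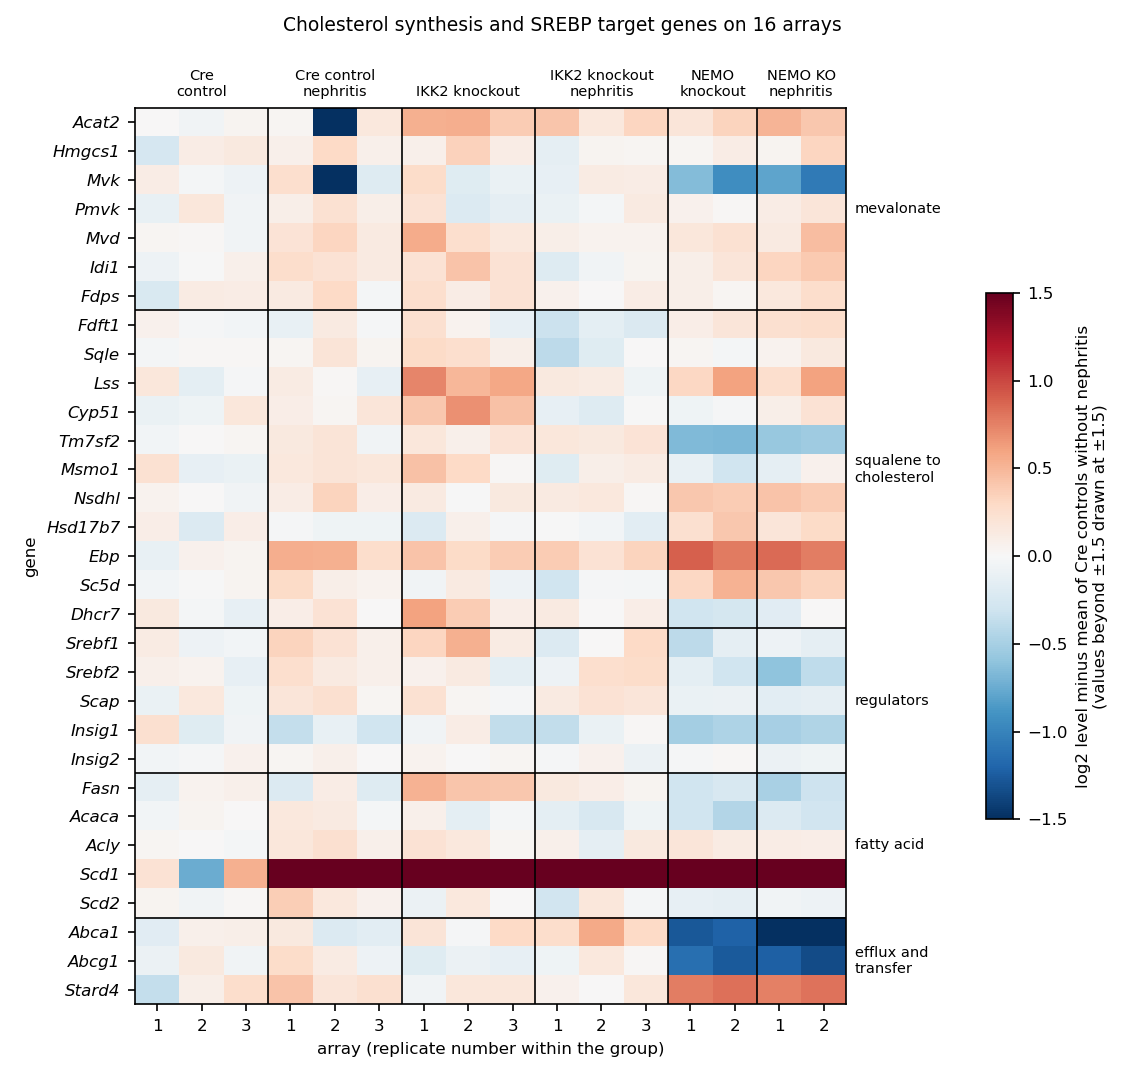
Level of each of the 31 genes (rows, grouped by role) on each of the 16 arrays (columns, grouped by genotype and condition), as the log2 level minus the mean of the Cre controls without nephritis; values beyond 1.5 in either direction are drawn at that limit. Abca1, Abcg1, Mvk and Tm7sf2 are blue on all 4 NEMO arrays, Scd1 is red on every array outside its reference group, and Acat2 and Mvk are dark blue on Cre control replicate 2 with nephritis.

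One array carried a local defect that touched 2 of the genes. On Cre control replicate 2 with nephritis, 254 bright probes read more than 2 log2 units below all 15 other arrays, against 0 to 12 on each of the others. All 254 lay between rows 50 and 229 and columns 1 and 39 of an array of 384 rows and 164 columns. Of these, 249 lay in a narrow band of spots of locally low signal. The spots of Acat2, which makes acetoacetyl-CoA, and Mvk, the mevalonate kinase, lay in it, 5.28 and 4.97 below their medians over the arrays. Their values there, -5.84 and -1.90, were kept in the fit unless stated, and an alternative chosen after seeing the data left out 1760 spots on this array and 79 and 104 on the NEMO arrays with nephritis. In that alternative the fit has no value of Acat2 and Mvk for this array.

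**Figure D2:**
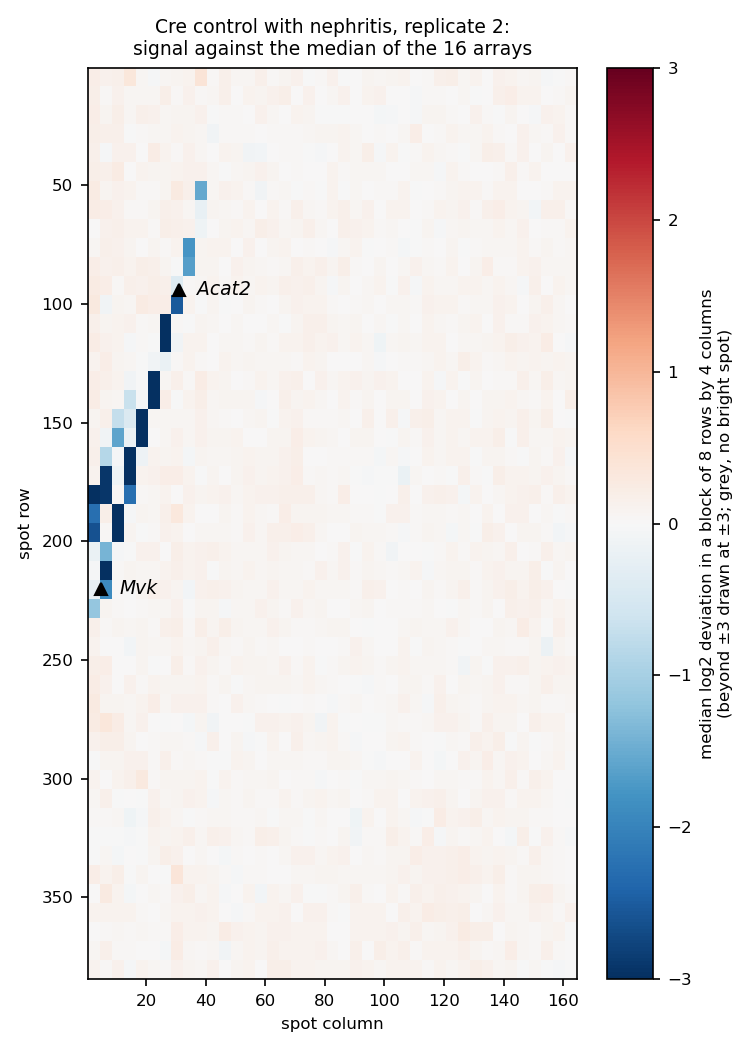
Map of Cre control replicate 2 with nephritis by spot row and column, coloured by the median log2 deviation of bright spots from the median of the 16 arrays in blocks of 8 rows by 4 columns. A dark band crosses the left edge, and the triangles mark the spots of Acat2 and Mvk inside it.

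The comparison of NEMO knockout with Cre control asked how these genes differed between the genotypes. Both cholesterol exporters were lower in the NEMO knockout in both conditions, the intracellular carrier Stard4 and the sterol isomerase Ebp were higher, and 15 of the 18 enzymes of synthesis differed by less than 0.5 in each condition. Without nephritis 12 of 31 genes passed, 7 higher and 5 lower, which is 38.7% against 43.0% of all genes tested (21.0% higher and 22.0% lower). With nephritis 10 of 31 passed, 3 higher and 7 lower, or 32.3% against 48.3% (18.8% higher and 29.6% lower). The median difference over the 31 genes was 0.00070 without and 0.01 with nephritis, against -0.06 and -0.14 over all genes.

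Apart from Scd1 without nephritis, the exporters had the largest differences of those that passed. Abca1, which loads cholesterol onto lipid-poor apolipoprotein, read -0.00066, 0.25 and 0.25 in Cre controls and -1.11 and -1.04 in NEMO knockouts without nephritis. With nephritis it read 0.31, -0.04 and 0.01 in controls and -1.54 and -2.14 in NEMO knockouts. Every NEMO array lay below every other array, and those with nephritis lay lowest. The difference was -1.24 (SE 0.18, adjusted p = 0.000164) without and -1.93 (SE 0.18, adjusted p = 6.05e-06) with nephritis. Between the NEMO groups Abca1 differed by -0.76 (SE 0.19) with nephritis, the only gene of the 31 with an unadjusted p under 0.05 there, and its adjusted p was 0.235. The difference of its nephritis response from that of controls was -0.69 (SE 0.25, adjusted p = 0.44).

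Abcg1, which exports cholesterol to lipoprotein particles, gave the same separation with less change between conditions. It read 4.37, 4.60 and 4.40 in Cre controls and 3.33 and 3.19 in NEMO knockouts without nephritis. In nephritis the levels were 4.73, 4.57 and 4.38 in controls and 3.23 and 3.11 in NEMO knockouts. All 4 NEMO arrays lay well below the lowest of the other 12 arrays. The difference was -1.20 (SE 0.11, adjusted p = 8.55e-06) without and -1.39 (SE 0.11, adjusted p = 2.75e-06) with nephritis. The calls of Abca1 and Abcg1 held without any 1 array. In the IKK2 knockout neither transporter passed in either condition, with differences between -0.13 and 0.45.

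Stard4, a SREBP target that carries cholesterol between membranes, went the other way. It read 0.82, 1.27 and 1.43 in Cre controls and 1.94 and 1.996 in NEMO knockouts without nephritis. In nephritis the levels were 1.60, 1.36 and 1.42 in controls and 1.93 and 1.99 in NEMO knockouts. The NEMO arrays were close together and above every control array, of which replicate 1 without nephritis was the lowest. The difference was 0.80 (SE 0.15, adjusted p = 0.00129) without and 0.50 (SE 0.15, adjusted p = 0.0172) with nephritis, and a weaker second probe gave 0.40 and 0.51. The call with nephritis was lost without Cre control replicate 2, NEMO replicate 1 or NEMO replicate 2, with adjusted p of 0.0516, 0.0606 and 0.095.

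**Figure D3:**
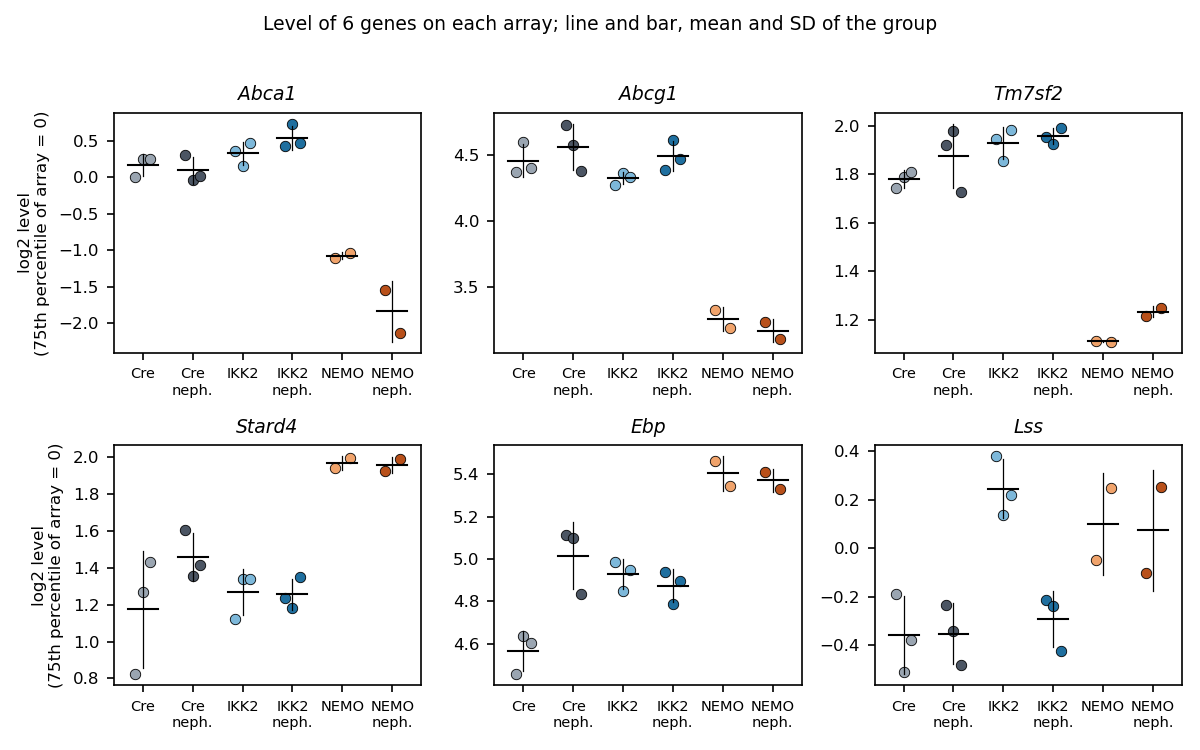
Level of Abca1, Abcg1, Tm7sf2, Stard4, Ebp and Lss on each array (points) in the 6 groups, with the mean (line) and SD (bar) of each group, on a log2 scale where 0 is the array's 75th percentile. The NEMO arrays lie below all others for Abca1, Abcg1 and Tm7sf2 and above all others for Stard4 and Ebp, while for Lss they overlap with the IKK2 knockout.

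The median difference over the 18 enzymes of synthesis was 0.10 without and 0.11 with nephritis. Of 12 cell cycle genes, 11 were higher without and 12 with nephritis, with median differences of 3.15 and 2.70. Pmvk, Mvd, Idi1, Fdps, Fdft1, Cyp51, Msmo1 and Dhcr7 passed in neither condition, with differences from -0.28 to 0.20 without and from -0.21 to 0.25 with nephritis. Hmgcs1, which commits acetyl units to the pathway and has the sterol regulatory element core shown above, differed by 0.07 (95% confidence interval -0.24 to 0.37) and 0.03 (-0.27 to 0.34). Sqle, the squalene epoxidase, differed by 0.00014 (-0.24 to 0.24) and 0.01 (-0.22 to 0.25).

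Tm7sf2, a sterol reductase after lanosterol, was the only synthesis enzyme that fell in the NEMO knockout in the fit with all spots. It read 1.74, 1.79 and 1.81 in Cre controls and 1.11 and 1.11 in NEMO knockouts without nephritis. In nephritis the levels were 1.92, 1.98 and 1.73 in controls and 1.22 and 1.25 in NEMO knockouts. No NEMO array reached the lowest of the others. The difference was -0.67 (SE 0.08, adjusted p = 4.5e-05) and -0.64 (SE 0.08, adjusted p = 5.72e-05), and a second probe gave -0.70 and -0.59.

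Ebp, the isomerase that moves the double bond of the sterol ring, was higher. It read 4.46, 4.63 and 4.61 in Cre controls and 5.46 and 5.35 in NEMO knockouts without nephritis. With nephritis it read 5.12, 5.10 and 4.83 in controls and 5.41 and 5.33 in NEMO knockouts. The groups did not overlap, although the controls with nephritis lay closer to the NEMO arrays than those without. The difference was 0.84 (SE 0.10, adjusted p = 4.66e-05) without and 0.36 (SE 0.10, adjusted p = 0.0119) with nephritis. The call with nephritis was lost without NEMO replicate 1, with an adjusted p of 0.086.

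Lss, which closes squalene epoxide into the sterol ring, was higher in both conditions. It read -0.19, -0.51 and -0.38 in Cre controls and -0.05 and 0.25 in NEMO knockouts without nephritis, and -0.23, -0.34 and -0.48 in controls and -0.10 and 0.25 in NEMO knockouts with it. The lower NEMO array of each condition lay just above the highest control. The difference was 0.46 (SE 0.14, adjusted p = 0.0215) and 0.43 (SE 0.14, adjusted p = 0.0274). Without NEMO replicate 2 the adjusted p was 0.207 and 0.276, and it also missed the threshold without Cre control replicate 2 or 3 in either condition. With nephritis it missed with normexp (0.26, adjusted p = 0.0897) and the authors' matrix (0.27, adjusted p = 0.106). Without the Cre replicates the values were 0.0703 and 0.0504 without nephritis and 0.0532 and 0.0783 with it. Nsdhl and Hsd17b7, which remove methyl groups and reduce the ketone left behind, and Sc5d, a desaturase, were higher by 0.39, 0.32 and 0.42 without nephritis and had differences of 0.23, 0.28 and 0.23 with it, where adjusted p was 0.0503, 0.0552 and 0.123.

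Mvk did not pass in the fit with all spots, with differences of -0.79 (SE 1.12, adjusted p = 0.601) and 0.75 (SE 1.12, adjusted p = 0.604). It read 3.28, 3.14 and 3.096 in Cre controls and 2.52 and 2.24 in NEMO knockouts without nephritis. With nephritis it read 3.42, -1.90 and 2.98 in controls and 2.38 and 2.12 in NEMO knockouts, of which -1.90 is the spot in the defect. Apart from that spot, all NEMO arrays lay below all others. Without the spots of the band it differed by -0.79 (SE 0.17, adjusted p = 0.00368) without and -0.95 (SE 0.19, adjusted p = 0.00192) with nephritis. A second Mvk probe, whose values did not depend on that spot, gave -0.95 (SE 0.18) and -1.03 (SE 0.18) with all spots, with unadjusted p of 0.00017 and 8.25e-05. Acat2 read -0.80, -0.87 and -0.77 in Cre controls and -0.63 and -0.48 in NEMO knockouts without nephritis, and -0.78, -5.84 and -0.65 in controls and -0.30 and -0.41 in NEMO knockouts with it. Without the band it was higher by 0.36 (SE 0.11, adjusted p = 0.0166) with nephritis. With the band left out, 14 of 31 genes passed without nephritis, 7 in each direction (45.2% against 43.7% of all genes), and 15 with nephritis, 7 higher and 8 lower (48.4% against 48.2%).

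**Figure D4:**
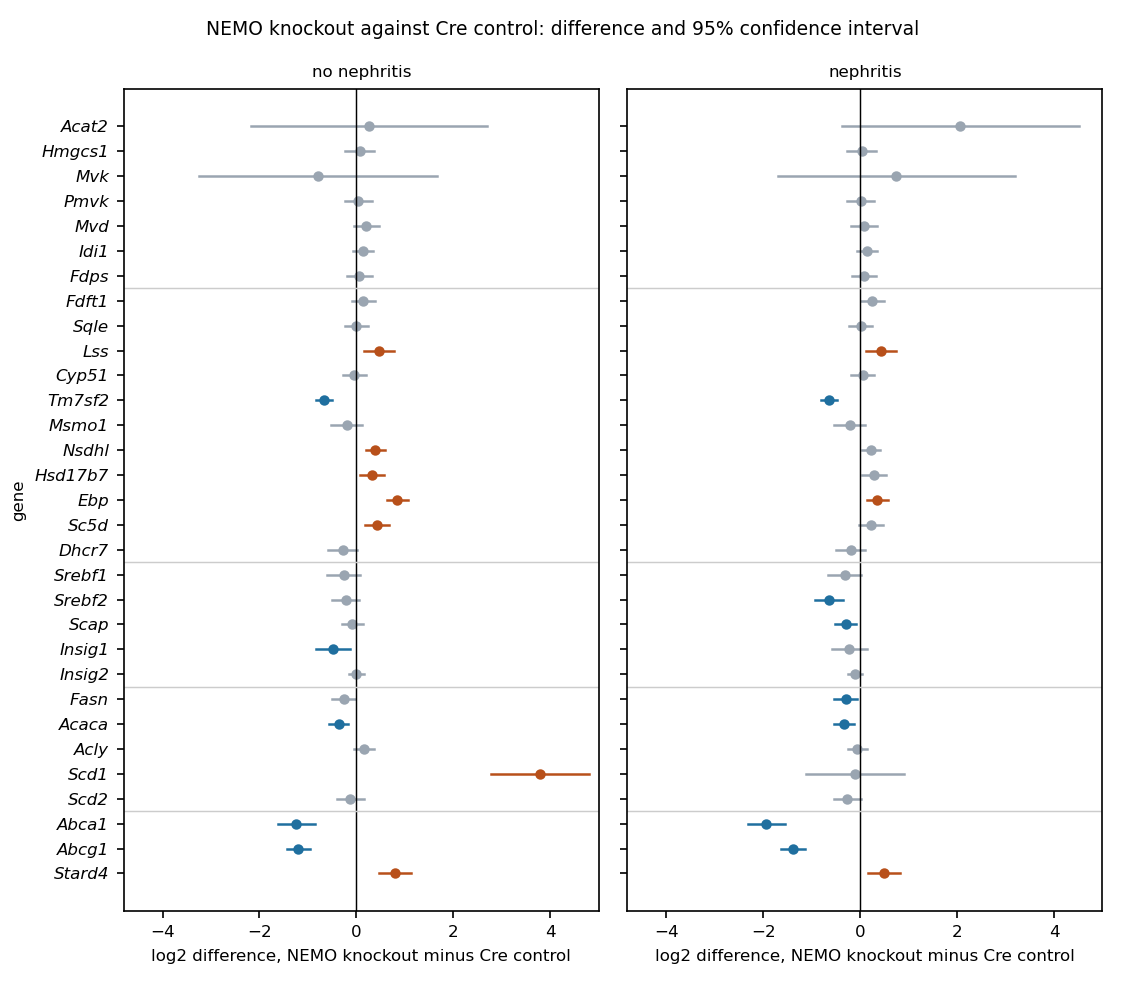
Log2 difference of NEMO knockout minus Cre control for each of the 31 genes, without (left) and with nephritis (right), with the 95% confidence interval of the limma model. Orange marks genes that were higher, blue genes that were lower, and grey genes with adjusted p of 0.05 or more; the wide grey intervals of Acat2 and Mvk come from the fit with all spots.

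Of the 5 genes of the SREBP switch, 1 was lower in the NEMO knockout without nephritis, Insig1. With nephritis 2 were lower, Srebf2 and Scap, and none was higher in either condition. Of all genes tested, 22.0% were lower without and 29.6% with nephritis, and 21.0% and 18.8% were higher. With only 5 genes, these counts cannot set the switch apart from all genes. Srebf1, which encodes SREBP-1 and is itself an LXR target, read -1.01, -1.20 and -1.17 in Cre controls and -1.52 and -1.27 in NEMO knockouts without nephritis, and -0.79, -0.91 and -1.05 in controls and -1.20 and -1.26 in NEMO knockouts with it. The groups did not overlap in either condition, but the differences of -0.26 (SE 0.15) and -0.31 (SE 0.15) did not pass (adjusted p = 0.19 and 0.113). Srebf2, the factor that mainly drives cholesterol synthesis, read 1.62, 1.60 and 1.42 in controls and 1.40 and 1.25 in NEMO knockouts without and 1.80, 1.68 and 1.62 in controls and 0.95 and 1.17 in NEMO knockouts with nephritis. It fell by 0.65 (SE 0.13, adjusted p = 0.00167) with nephritis, where a dimmer second probe gave 0.13 (SE 0.16). The mean over both probes gave -0.26 (adjusted p = 0.0805).

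Insig1, which retains the Scap complex and is itself raised by SREBP, read -0.44, -0.86 and -0.73 in Cre controls and -1.19 and -1.14 in NEMO knockouts without nephritis. With nephritis it read -1.04, -0.79 and -0.97 in controls and -1.18 and -1.13 in NEMO knockouts. The NEMO arrays lay below all controls in both conditions, and control replicate 1 without nephritis was the highest array of all. Insig1 fell by 0.49 (SE 0.16, adjusted p = 0.0296) without nephritis and differed by -0.22 (SE 0.16, adjusted p = 0.282) with it. The call was lost without control replicate 1, NEMO replicate 1 or NEMO replicate 2, with adjusted p of 0.0948, 0.129 and 0.0976, and with normexp (-0.32, adjusted p = 0.0597). Scap differed by -0.09 and fell by 0.30 with nephritis (adjusted p = 0.0276). Insig2 differed by 0.00070 and -0.11.

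In fatty acid synthesis, Acaca, the acetyl-CoA carboxylase, read 2.77, 2.85 and 2.83 in Cre controls and 2.51 and 2.38 in NEMO knockouts without nephritis, and 2.97, 2.95 and 2.79 in controls and 2.61 and 2.53 in NEMO knockouts with it. It fell by 0.37 (SE 0.09, adjusted p = 0.00623) and 0.33 (SE 0.09, adjusted p = 0.01) on its brightest probe. Its other, dimmer probes gave 0.85 (SE 0.62) and -0.03 (SE 0.50) with nephritis, and the mean over its probes was 0.16 (adjusted p = 0.683), the reverse sign. With normexp its call with nephritis was lost (-0.24, adjusted p = 0.0622). Fasn, the fatty acid synthase, whose promoter has the DR4 match, differed by -0.27 (adjusted p = 0.0643) and fell by 0.30 with nephritis (adjusted p = 0.0379). Acly and Scd2 passed in neither condition.

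The direction counts depended on scaling. Scaling over the probes above background on all arrays gave 6 higher and 6 lower without and 6 higher and 6 lower with nephritis, and the authors' deposited log2 matrix gave 5 higher and 6 lower, and 4 higher and 6 lower. Leaving out NEMO replicate 2 without nephritis left 7 genes, and leaving out NEMO replicate 1 or 2 with nephritis left 6 each. In both conditions Ebp, Lss and Stard4 were higher and Abca1, Abcg1, Acaca and Tm7sf2 lower in the fit with all spots, from groups with no array in common.

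Other genes of these pathways were listed for context. Of 9 LXR pathway genes, which include Srebf1, 3 were lower without and 4 with nephritis and 0 higher. That is 33.3% and 44.4% of the list, against 22.0% and 29.6% of all genes that were lower. In either direction 43.0% and 48.3% of all genes passed, more than in this list. Mylip, an LXR target that marks lipoprotein receptors for degradation, differed by -0.51 (SE 0.11) and -0.86 (SE 0.11). Of 15 genes of sterol storage, uptake and transport, 6 were higher and 3 lower without and 7 higher and 2 lower with nephritis, or 60.0% in each condition against the 43.0% and 48.3% of all genes that passed. Among them Cyp27a1, which makes an oxysterol that activates LXR, was not well above background on any Cre control array, so that only a bound can be given, at least 2.74-fold higher without (adjusted p = 4.27e-05) and at least 2.41-fold with nephritis (adjusted p = 0.00141). Soat2, which esterifies cholesterol, was higher by 1.58 (SE 0.47) and 2.26 (SE 0.47). Of 14 genes of fatty acid elongation, activation and use, 6 were higher and 2 lower without and 5 higher and 4 lower with nephritis (57.1% and 64.3%), with Acsl3, an acyl-CoA synthetase, at -1.46 (SE 0.20) and -1.67 (SE 0.20). Of 12 genes of SREBP cleavage and turnover, 1 was higher and 1 lower in each condition (16.7%), and Mbtps1, the site-1 protease, fell by 0.32 and 0.51. Of 14 genes of isoprenoid use, 2 were higher and 4 lower, then 0 higher and 6 lower (42.9% in each), with Fntb, a farnesyltransferase subunit, at -1.83 (SE 0.21) and -2.24 (SE 0.21). Without and with nephritis 7 and 5 of 10 myeloid markers, 7 and 1 of 10 B cell markers and 3 and 3 of 5 CD8 T and NK cell markers were higher. Lower were 0 and 1 of the B cell markers, 1 and 1 of the CD8 T and NK cell markers, which was Cd8b1 (-0.87 and -0.91), and 3 and 4 of 8 CD4 T cell markers. The part of other cells in these values was not tested.

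NEMO knockouts were also set against IKK2 knockouts, which lay on other slides. Without nephritis 14 of 31 genes passed (45.2% against 35.3% of all genes, of which 15.4% were higher and 19.9% lower), 5 higher and 9 lower in the NEMO knockout. With nephritis 14 passed (45.2% against 46.1%, 19.0% higher and 27.2% lower), 8 higher and 6 lower. With the band of low spots left out, 15 genes passed in each condition, and no share of all genes is given for that fit. Both exporters differed again, Abca1 by -1.40 (SE 0.18, adjusted p = 0.000102) and -2.38 (SE 0.18, adjusted p = 1.5e-06) and Abcg1 by -1.07 (SE 0.11) and -1.32 (SE 0.11). Stard4 was higher by 0.70 (SE 0.15) in each condition. Fasn read -0.02, -0.13 and -0.14 in IKK2 knockouts and -0.84 and -0.78 in NEMO knockouts without nephritis, and -0.40, -0.45 and -0.50 in IKK2 and -1.03 and -0.85 in NEMO knockouts with it. Its groups did not overlap, and it fell by 0.72 (SE 0.11, adjusted p = 0.000363) and 0.49 (SE 0.11, adjusted p = 0.00295). Dhcr7, the last reductase of synthesis, read 1.46, 1.24 and 0.95 in IKK2 and 0.56 and 0.59 in NEMO knockouts without nephritis and fell by 0.64. With nephritis Sc5d read 2.39, 2.68 and 2.67 in IKK2 and 3.09 and 3.02 in NEMO knockouts, a difference of 0.48 (SE 0.11, adjusted p = 0.00481). Srebf1 read -0.81, -0.59 and -0.9998 in IKK2 knockouts without nephritis and differed by -0.59 (SE 0.15, adjusted p = 0.0108) there, a call lost without NEMO replicate 1 (adjusted p = 0.116). Without NEMO replicate 2, 9 genes passed in place of 14 without nephritis, and the authors' matrix gave 3 higher and 9 lower. These contrasts share the NEMO arrays with those against Cre controls.

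IKK2 knockouts were next compared with Cre controls without nephritis. In the knockout 4 of the 18 synthesis enzymes were higher, by 0.29 to 0.60, in arrays that lay on different slides. Of 31 genes 6 passed, all higher, or 19.4%, against 14.6% of all genes tested and 10.0% that were higher. They were Idi1, Lss, Cyp51 and Ebp of cholesterol synthesis, Fasn, and Scd1, the desaturase that makes oleic acid. Of the 18 synthesis enzymes 15 had positive differences, with a median of 0.20 against 0.05 over all genes. Slide 2 held the 3 controls and 1 knockout array, replicate 3, so a test within it has 1 array in an arm and its calls say little; the differences there are given beside each gene. With slide as a block, which rests on the same array, only Scd1 passed. Fitted on these groups alone, 3 passed.

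Cyp51, the lanosterol demethylase, read -0.20, -0.16 and 0.07 in Cre controls and 0.30, 0.59 and 0.34 in IKK2 knockouts. All 3 knockout arrays were above all 3 controls, replicate 3 of slide 2 included. The difference was 0.51 (SE 0.10, adjusted p = 0.00667), and on slide 2 it was 0.44 (adjusted p = 0.106 with slide as a block). Lss read 0.38, 0.14 and 0.22 in the knockouts against the control values above, with no overlap, and differed by 0.60 (SE 0.13, adjusted p = 0.0101; 0.58 on slide 2). Fasn read -0.68, -0.49 and -0.47 in controls and, as given above, from -0.14 to -0.02 in knockouts, which again did not overlap. Its difference was 0.45 (SE 0.10, adjusted p = 0.0109; 0.41 on slide 2).

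Idi1, the isomerase that makes dimethylallyl diphosphate, read 2.35, 2.41 and 2.50 in controls and 2.64, 2.85 and 2.64 in knockouts. The groups did not overlap and the difference was 0.29 (SE 0.08, adjusted p = 0.0416; 0.21 on slide 2). The call was lost without any control array or without knockout replicate 2, with adjusted p of 0.0579 to 0.133, and also with normexp, the stricter percentile and the authors' matrix (0.0565, 0.0567 and 0.0686). Ebp read 4.99, 4.85 and 4.95 in the knockouts and was higher by 0.36 (SE 0.09, adjusted p = 0.0206; 0.39 on slide 2), a call lost without control replicate 1 (adjusted p = 0.0635) or knockout replicate 1 (adjusted p = 0.0562). Without the band of low spots Acat2, which read -0.29, -0.26 and -0.43 in the knockouts, was higher by 0.49 (SE 0.09, adjusted p = 0.00521). On the same arrays 9 of 10 B cell markers and 7 of 10 myeloid markers were higher, with median differences of 2.33 and 1.57. Of 12 cell cycle genes 9 were higher, with a median difference of 1.05, and of 5 CD8 T and NK cell markers 3 were higher and 1 lower. Their part in the result was not tested.

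Scd1 was not measured above background in one of the groups compared. It read -6.27, -7.22 and -5.94 in Cre controls without nephritis, where it was not well above background on any array. It read -4.54, -2.80 and -3.01 in controls with nephritis, and in IKK2 knockouts -2.24, -2.49 and -2.44 without and -3.18, -2.60 and -2.84 with it. NEMO knockouts read -2.88 and -2.50 without and -3.41 and -3.71 with nephritis. Every array of the other groups was higher than those 3. The control level is therefore only a bound, set against the higher of the probe's own signal and the lowest signal well above background on each array. On that scale Scd1 was at least 5.20-fold higher in the IKK2 knockout (adjusted p = 0.00032). For the NEMO knockout it was at least 4.22-fold (adjusted p = 5.59e-05). In controls with nephritis the same calculation gave 2.50-fold (adjusted p = 0.00714). There 2 of 3 arrays were well above background and all 3 entered the mean as measured, so 2.50 is not a strict minimum. The adjusted p-values come from the limma fit, which takes dim values as measured. With nephritis Scd1 differed by 0.58 (IKK2) and -0.11 (NEMO) from controls and did not pass.

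**Figure D5:**
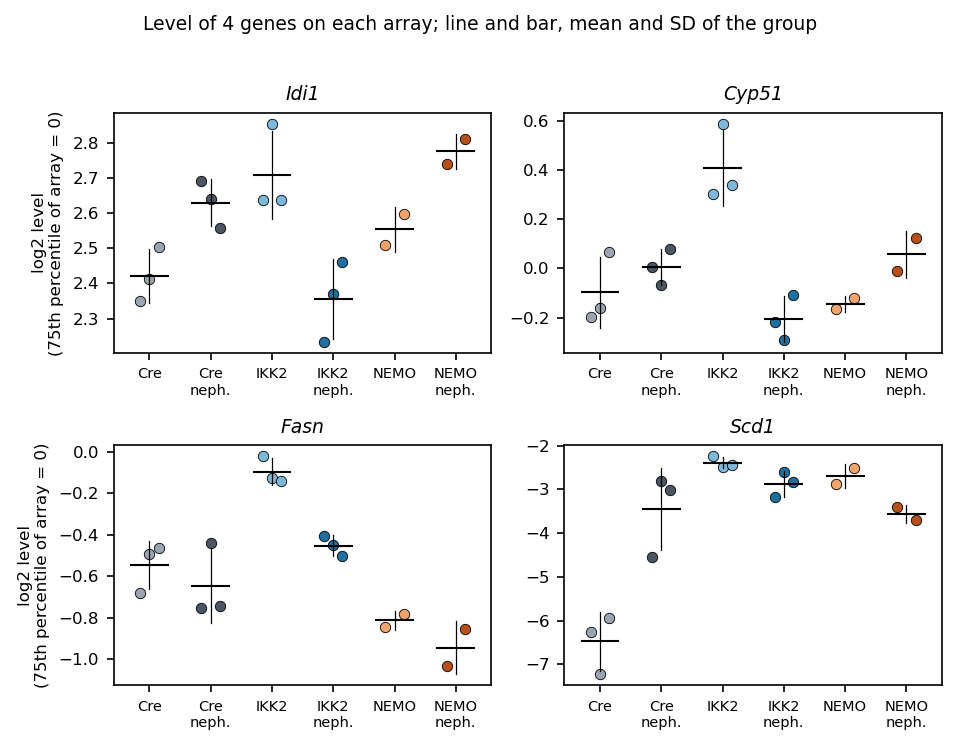
Level of Idi1, Cyp51, Fasn and Scd1 on each array (points) in the 6 groups, with the mean (line) and SD (bar) of each group, on a log2 scale where 0 is the array's 75th percentile. Cyp51 and Fasn are highest in the IKK2 knockout without nephritis, and Scd1 is lowest in the Cre controls without nephritis, where it was not well above background.

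The last question was what nephritis changed within each genotype. In Cre controls, whose conditions lay on different slides, 2 of 31 genes passed (6.45% against 4.03% of all genes, 2.57% higher), Scd1 and Ebp, both higher. Ebp rose by 0.45 (SE 0.09, adjusted p = 0.0246). This call was lost without control replicate 1 or 3 without nephritis or replicate 2 with it, with adjusted p of 0.0774, 0.06 and 0.0766, and neither gene passed with slide as a block (adjusted p = 0.302 for Ebp and 0.198 for Scd1). With normexp Ebp had an adjusted p of 0.0694. Scd1 differed by 0.58 log2 units with normexp (adjusted p = 0.0898), below the 1.32 reached with the controls without nephritis at the bound above. On the same arrays 5 of 10 B cell markers, 3 of 10 myeloid markers and 3 of 12 cell cycle genes were higher. The part of these cells in the result was not tested. In NEMO knockouts, on 1 slide, 0 of 31 passed by limma, against 0.416% of all genes. At an unadjusted p under 0.05 there was 1 gene, with no share of all genes taken at that threshold.

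In IKK2 knockouts 1 of 31 passed (3.23% against 0.443% of all genes, 0.198% lower). Cyp51 read -0.22, -0.29 and -0.11 with nephritis against the higher values given above without it, with no overlap, and fell by 0.62 (SE 0.10, adjusted p = 0.0215). On slide 1 alone it differed by -0.65 (adjusted p = 0.203), with normexp by -0.51 (adjusted p = 0.122) and in the authors' matrix by -0.55 (adjusted p = 0.111). The call was lost without replicate 2 without nephritis, or replicate 2 or 3 with it, with adjusted p of 0.068, 0.103 and 0.0674. Of the 18 synthesis enzymes 14 had negative differences, with a median of -0.19 against 0.01 over all genes, among them Lss at -0.54 (adjusted p = 0.0841), Sqle at -0.40 (adjusted p = 0.0879) and Idi1 at -0.35 (adjusted p = 0.0846). B cell and myeloid markers, none of which passed, had median differences of -0.35 and -0.74. With nephritis, 0 of 31 genes passed between IKK2 knockouts and Cre controls by limma, against 2.60% of all genes. At an unadjusted p under 0.05 there were 6 genes, with no share of all genes taken at that threshold. All 6 arrays lay on slide 1.

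The nephritis response itself was compared between genotypes. In the fit it was lower in IKK2 knockouts than in controls for 3 of 31 genes (9.68% against 1.14% of all genes, 0.838% lower), among them Scd1, whose level in controls without nephritis is only a bound. Idi1 read 2.69, 2.64 and 2.56 in controls and 2.23, 2.37 and 2.46 in IKK2 knockouts with nephritis, and with nephritis it differed by 0.21 in the former and -0.35 in the latter. The difference of the responses was -0.56 (SE 0.12, adjusted p = 0.0492), and without the band of low spots it was -0.54 and did not pass (adjusted p = 0.0569), which left 2 of the 3 genes. For Cyp51, which read 0.01, -0.07 and 0.08 in controls with nephritis, it was -0.72 (SE 0.14, adjusted p = 0.0389). The IKK2 knockout arrays without nephritis also enter the differences from Cre controls and between the IKK2 groups given above, so these results are not separate. For Scd1 no size can be given. The controls without nephritis were set at the bound described above, and the other arrays were taken as measured. The Scd1 response was then 1.80 log2 units lower in IKK2 and 2.19 lower in NEMO knockouts than in controls. Only 2 of 3 control arrays with nephritis were well above background, so these values are not strict minima. The fit, which takes the dim values as measured, gave adjusted p = 0.0325 and 0.0407. In the NEMO comparison Scd1 was the only gene that passed (1 of 31, 3.23% against 0.266%, 0.252% lower). With slide as a block 0 of 31 passed in either contrast, and 0 passed without Cre control replicate 2 with nephritis.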

How the data were processed

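RNA of each sample was hybridised to a one-colour Agilent array, 16 in all, and the deposited scanner files hold spot intensity. Per the file headers the authors' software, Agilent Feature Extraction 10.7.3.1, subtracted background to give the processed intensity (the submitters' processing notes name version 10.5). A second deposited table holds the authors' log2 values, with column medians of 5.65 to 5.68, made by a normalization not named in the sources at hand. It correlated at 0.994 to 0.999 with log2 of the median spot intensity and was used as an alternative. The members and gene lists were chosen with earlier results of these data known.

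Spots with an outlier flag were dropped (103 to 246 per array), spots of a probe were averaged, log2 was taken and the 75th percentile of the array over non-control probes was subtracted. A probe was kept if at least 2 arrays had it well above background, and the brightest probe stood for a gene. Of 55681 probes, 27255 were named with 1 symbol by accession through RefSeq (GRCm38.p6) and 28426 were not named, since the scanner files carry no symbols. Group means were fitted with limma 3.58.1 (R 4.3.3, lmFit and eBayes, all 16 arrays, two-sided, Benjamini-Hochberg over 14679 genes, threshold 0.05), and figures were drawn with matplotlib 3.10.9. Between 48.9% and 59.8% of spots were well above background, no spot was saturated, and the number of arrays limits the precision. All 31 members could be named. Values on every array were due for Srebf1, Srebf2, Insig1, Abca1 and Abcg1 and for up to 8 members per comparison with the largest called difference, and up to 3 called genes of each other list could be named. Alternatives were normexp on the median and background intensity (offset 50, the mean intensity not being a column of the files), another percentile, no filter on dim probes, the mean of all probes, the authors' matrix, slide or replicate number as a block, only the groups compared, each array left out, a pair of Cre arrays that stood apart left out, and, chosen after seeing the data, the spots of locally low signal left out. The procedure was tested on simulated data. A further marker list that was examined is not reported here.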

Additional observations from a re-analysis of the deposited data

Results flagged for a closer look

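The nephritis response differed between genotypes for 3 genes, by the interaction term of the limma model. Between IKK2 knockout and Cre control it differed by -0.56 for Idi1 and by -0.72 for Cyp51. This contrast shares the IKK2 knockout arrays without nephritis with the comparison against Cre controls and with that of nephritis in IKK2 knockouts. With nephritis the 2 genotypes differed by -0.27 in Idi1 (limma adjusted p = 0.121) and -0.21 in Cyp51 (adjusted p = 0.277). For Scd1 the fitted differences were -3.51 for IKK2 and -3.89 for NEMO knockout minus Cre control. These are not sizes, since Scd1 was not well above background on any Cre control array without nephritis. With that group at its bound and the other arrays as measured, they were -1.80 and -2.19, which are not strict limits. Idi1 lost this call in 11 of 12 fits that left out 1 array, Cyp51 in 9 of 12, and Scd1 in 8 of 12 for IKK2 and in 9 of 10 for NEMO.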

How the results depend on the processing

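Counts of the 31 genes past the threshold moved by over 1.5 times in these settings. Nephritis in Cre controls (2 in the report) gave 0 with normexp, with slide as a block and with only the groups compared, and 1 without the filter on dim probes and without the 2 Cre arrays that stood apart (replicate 1 without and replicate 2 with nephritis). Nephritis in IKK2 knockouts (1) gave 0 with normexp, the authors' matrix, only the groups compared and slide 1 alone. IKK2 knockout against Cre control without nephritis (6) gave 1 with slide as a block, 3 with only the groups compared and 0 on slide 2 alone, a test with 1 array in an arm that could hardly pass, and NEMO against IKK2 knockout without nephritis (14) gave 8 with only the groups compared. The difference of response in IKK2 knockouts (3) gave 1 with the percentile taken over probes detected on every array and 0 with normexp, no filter, the authors' matrix, slide as a block, the replicate block, only the groups compared and without the 2 Cre arrays. That in NEMO knockouts (1) gave 0 in each of these, the percentile included. Acaca in NEMO knockout against Cre control with nephritis changed sign with the mean of all its probes, to 0.16 (adjusted p = 0.683); the cause was not tested. Leaving out 1 array gave 1 to 2 for nephritis in Cre controls, 0 to 1 in IKK2 knockouts and 0 to 0 in NEMO knockouts, 4 to 8 and 0 to 0 for IKK2 against Cre without and with nephritis, 7 to 12 and 6 to 10 for NEMO against Cre, 9 to 15 and 10 to 12 for NEMO against IKK2, 0 to 3 for the IKK2 and 0 to 1 for the NEMO difference of response. Same-numbered arrays of different groups had deviations correlated at -0.20 to 0.13 (median -0.0054), against -0.16 to 0.27 (median -0.00076) for different numbers. This showed no pairing, but in groups of 2 or 3 arrays, whose deviations sum to 0, it cannot exclude one. With the replicate block 12 and 9 genes passed for NEMO against Cre, 14 and 13 for NEMO against IKK2, and 6 for IKK2 against Cre without nephritis. A block for slide could not be fitted to NEMO against the other genotypes. Genes not well above background, such as Scd1 in the controls, have only a bound.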
